A study of Mus musculus with 6 samples.

Results

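The genes described here encode proteins of the splicing machinery. They were chosen by symbol as all rows of the count table that start with Srsf, Hnrnp, Snrp, Sf3a or Sf3b, which gave 48 of 14515 genes. There were 11 Srsf genes, 18 Hnrnp genes, 11 Snrp genes, 3 Sf3a genes and 5 Sf3b genes. The rule itself uses no measured value, though it was set with earlier results of these data known. RNA came from naive CD8 T cells of the spleen, sorted at 100000 cells per mouse for surface CD45, CD3 and CD8 and absence of CD44, from 3 wild type (Lair1+/+) and 3 LAIR-1-deficient (Lair1-/-) mice, with 1 library per mouse. The cells were taken at baseline. Age, sex, strain and the part of Lair1 removed by the allele were not given in the sources used here. The question is whether the absence of LAIR-1, an inhibitory collagen receptor of leukocytes, changes the resting transcriptome of these cells.

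Introns are removed by the spliceosome, which is built from small nuclear ribonucleoproteins (snRNPs). Each of these holds a small nuclear RNA, a ring of Sm or Sm-like (LSm) proteins and proteins of its own. The SF3a and SF3b complexes are parts of the U2 snRNP that recognises the branch site. SR proteins bind exons through RNA recognition motifs and recruit the spliceosome through a tail rich in arginine and serine. The hnRNP proteins coat nascent RNA and often act as repressors of exon use. In T cells these regulators are known for the splicing of Ptprc, which encodes CD45: hnRNP L and hnRNP LL repress its variable exons, the latter when naive cells are activated. Many genes of the SR and hnRNP families also control their own level through exons that send the transcript to decay.

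The coding sequences differ between the families. SR proteins are named for their tail rich in arginine and serine, so a high count of such pairs in Srsf genes follows from the naming. It is a description and no independent result. Adjacent codons for arginine and serine, in either order, were counted in the longest coding sequence of each gene in GENCODE vM21 (GRCm38). Srsf genes held a median of 16.0 such pairs per 100 codons, from 4.05 in Srsf9 to 23.5 in Srsf2. The median was 0.994 in Hnrnp, 0 in Snrp, 0.126 in Sf3a and 0.383 in Sf3b genes, and the highest outside the Srsf genes was 3.26 in Snrpe. Pairs of arginine and glycine codons had a median of 2.80 per 100 codons in Hnrnp genes, up to 5.38 in Hnrnpr. Srsf genes had a median close to this, at 2.52, so these pairs did not set the Hnrnp genes apart from them. Snrp genes had a median of 1.69, up to 16.0 in Snrpd1. The median was 0.379 in Sf3a and 0.683 in Sf3b genes. The densest stretch of 30 codons within 1 exon is printed for the most abundant Srsf gene (Srsf2), for the Srsf genes with the smallest p between genotypes (Srsf5 and Srsf1), for Srsf11, and for Hnrnpu as an example of arginine and glycine pairs. Capitals mark codons that belong to such a pair, and all are read 5′ to 3′ on the coding strand.
Srsf2, minus strand, chr11:116852226-116852315: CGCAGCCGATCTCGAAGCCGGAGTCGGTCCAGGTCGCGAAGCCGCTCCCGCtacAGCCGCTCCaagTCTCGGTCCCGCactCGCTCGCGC
Srsf5, plus strand, chr12:80949757-80949846: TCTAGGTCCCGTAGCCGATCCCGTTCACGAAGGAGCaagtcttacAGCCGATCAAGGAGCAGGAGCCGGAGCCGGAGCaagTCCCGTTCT
Srsf1, plus strand, chr11:88049466-88049555: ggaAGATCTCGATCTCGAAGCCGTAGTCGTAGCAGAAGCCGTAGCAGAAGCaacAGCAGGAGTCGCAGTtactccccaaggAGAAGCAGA
Srsf11, minus strand, chr3:158016363-158016452: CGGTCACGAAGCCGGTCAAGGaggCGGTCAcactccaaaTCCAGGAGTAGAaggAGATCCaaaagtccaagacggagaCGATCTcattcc
Hnrnpu, minus strand, chr1:178330596-178330685: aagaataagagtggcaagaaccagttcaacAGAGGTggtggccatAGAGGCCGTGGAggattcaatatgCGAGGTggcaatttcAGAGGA
The stretches held 23, 22, 21 and 12 arginine and serine pairs in Srsf2, Srsf5, Srsf1 and Srsf11, and 6 arginine and glycine pairs in Hnrnpu.

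Library totals over genes ran from 5519748 to 9187017 counts, and every Lair1-/- library (at most 7296424) was shallower than every wild type library (at least 7974206). Lair1 had 58, 32 and 43 counts in wild type mice 1 to 3 but 2, 1 and 1 in Lair1-/- mice 1 to 3, a log2 fold change of -4.58 (SE 0.57) with an adjusted p of 0.00255 in edgeR's quasi-likelihood test. The adjusted p in edgeR was 0.0592 without wild type mouse 1 and 0.0712 without mouse 1 of both genotypes. The markers of the sorted cell were high in every library, with a summed level of 9 genes between 7514 and 8121 CPM (counts normalised to library size, scaled by TMM). Markers of B cells (4 genes) summed to 25.3 to 32.5 CPM and those of macrophages and monocytes (5 genes) to 56.8 to 73.6 CPM. Cst3 alone made up 52.5 to 66.4 CPM of the latter, and Lyz2 was at or near 0. The erythroid gene Beta-s, a beta globin, ranged from 26.9 to 166 CPM, and its part in the results was not tested. Immediate early genes of T cell triggering (12 genes) summed to 8659 and 10383 CPM in the libraries labelled mouse 1 of each genotype and to between 3372 and 3909 CPM in the 4 others.

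The splicing factors were expressed at a steady share of the transcriptome. The 48 genes together took 0.834%, 0.815% and 0.823% of counts in wild type mice 1 to 3, against 0.821%, 0.834% and 0.824% in Lair1-/- mice 1 to 3. Summed over the 48 genes, the level was 8275 ± 99.6 CPM for wild type against 8248 ± 72.8 CPM for Lair1-/- cells (SD, n = 3 each). In bulk samples, fewer cells of a type and less RNA per cell cannot be told apart. Of the 48 genes, 47 passed the filter on low counts and were tested, and 43 of these had a mean of at least 10 CPM. Srsf4 did not pass: it had 3, 0 and 0 counts in wild type and 1, 0 and 0 in Lair1-/- mice, where a count of 0 allows a level of up to 0.328 to 0.534 CPM, by 3 counts of a library and for counting error only.

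**Figure D1:**
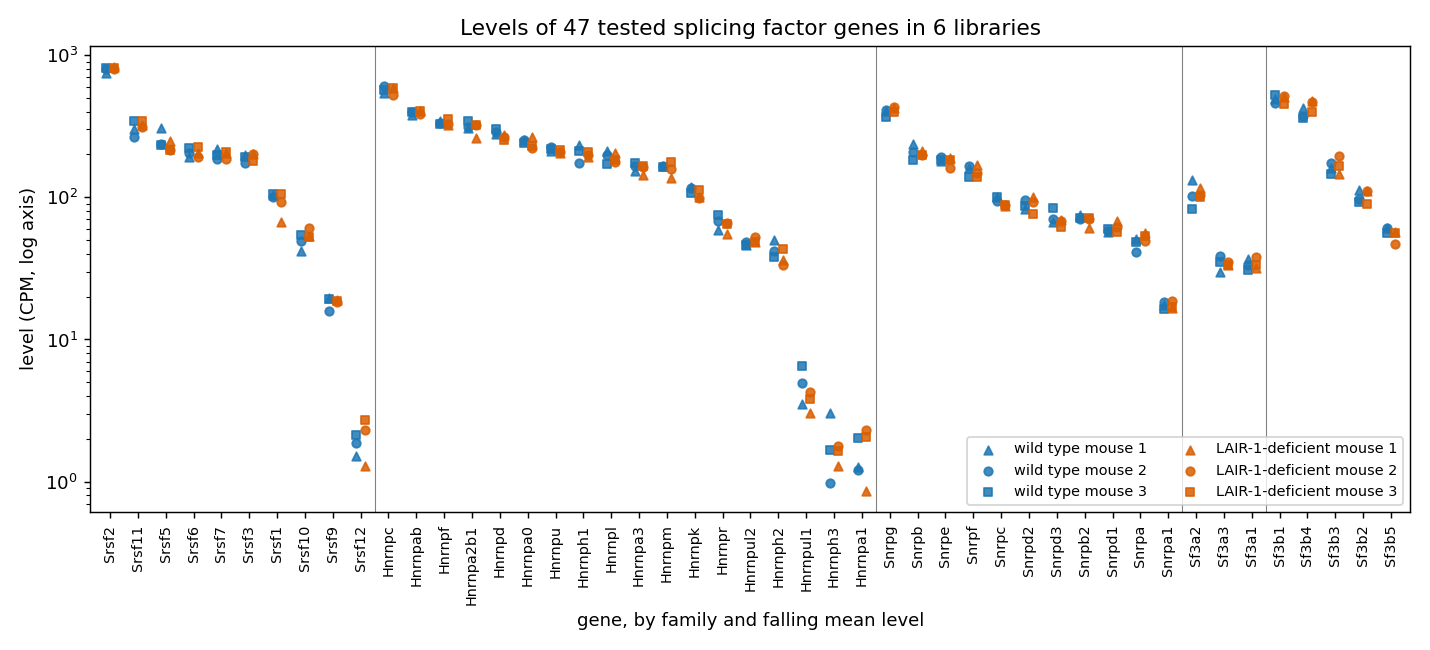
Level in CPM (log axis) of the 47 tested genes, grouped by family and ordered by mean level. Each point is 1 library, coloured by genotype, with the mouse number as the shape. 43 genes lie at 10 CPM or more with the genotypes close together, and Srsf12, Hnrnpul1, Hnrnph3 and Hnrnpa1 lie under 10 CPM.

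No splicing factor was called different between the genotypes. Of the 47 tested, 0 passed edgeR's quasi-likelihood test at an adjusted p under 0.05, where 0.0105% of 9565 genes passed, and 0 passed in DESeq2 or limma-voom. Of the 47, 1 had an unadjusted p under 0.05, Sf3b4, against 3.25% of all genes tested. DESeq2 gave 1 such member, against 2.27% of genes, and limma-voom 1, against 3.23%. Fold changes are Lair1-/- over wild type, and intervals in parentheses are 95% intervals. Of the 47 genes, 22 had a positive and 25 a negative log2 fold change, with a median of -0.02, where all tested genes had a median of 0.0006. The smallest was -0.44 (Hnrnpul1) and the largest 0.21 (Sf3b4). Each of the 47 genes had an adjusted p of 0.9999 in edgeR, as had each tested gene of the other splicing lists described below.

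Most intervals were narrow. For 43 of the 47 genes (91.5%) the 95% interval excluded a change of 1.5-fold either way, as it did for 63.2% of all genes tested. At 10 CPM or more, this held for all 43 genes and for 86.9% of the 6620 tested genes at that level. The 4 exceptions were Srsf12, Hnrnpul1, Hnrnph3 and Hnrnpa1, whose means were under 10 CPM. For these the interval did not exclude a change of 1.5-fold, and whether such a change would be called at this depth was not tested.

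The spread between mice was also small. The highest library was 1.23 times the lowest in the median over the 43 genes at 10 CPM or more, against 1.35 times over all tested genes at that level. It was under 1.5 times in 41 of the 43, and was largest for Sf3a2 (1.58) and Srsf1 (1.57). Biological variation as estimated by edgeR had a median of 0.114 over these 43 genes and 0.118 over all genes at 10 CPM or more.

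**Figure D2:**
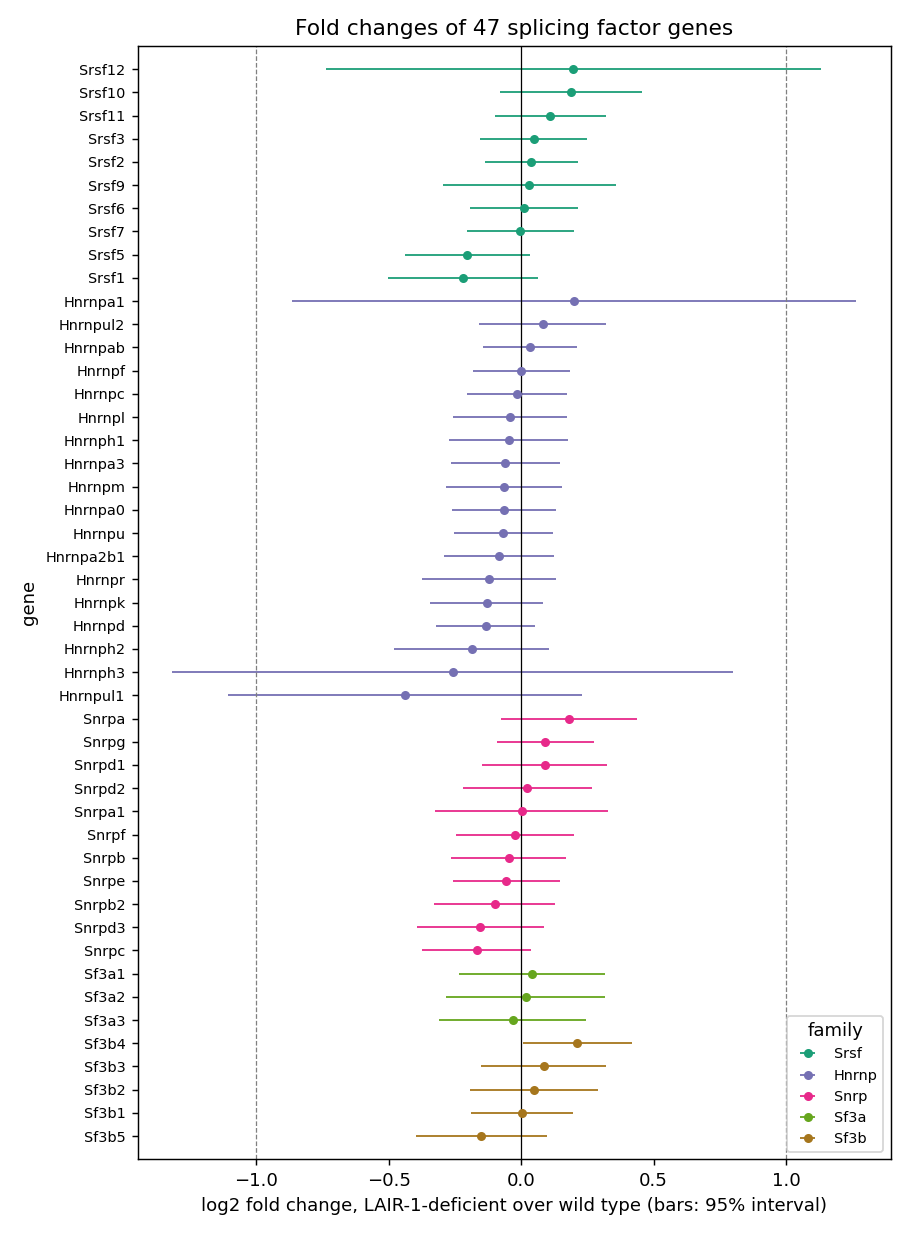
Log2 fold change (Lair1-/- over wild type) of the 47 tested genes with 95% intervals, by family and falling fold change; the dashed lines mark a change of 2-fold. All intervals but that of Sf3b4 include 0, and the 4 wide ones belong to Srsf12, Hnrnpa1, Hnrnph3 and Hnrnpul1.

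Srsf2 had the highest level of the SR proteins and of all 48 genes in CPM. Per kilobase of exons its mean was also the highest, but it did not differ from Snrpg beyond their spread. Srsf2 was at 394 ± 16.2 and Snrpg at 373 ± 20.0 CPM per kb in wild type cells. In Lair1-/- cells they were at 405 ± 7.21 and 397 ± 16.4 CPM per kb (SD, n = 3 each). Of the 50-base words of Srsf2, 31.8% also occur in transcripts of other genes, and the part of this in its level was not tested. Srsf2, which binds exonic enhancers, was at 753, 797 and 817 CPM in wild type mice 1 to 3, against 823, 795 and 814 CPM in Lair1-/- mice 1 to 3. The groups overlapped, and the 95% interval of the fold was 0.91 to 1.16. Srsf11, a less typical member of the family, was at 300, 267 and 342 CPM in wild type and 323, 311 and 345 CPM in Lair1-/- mice. Its log2 fold change was 0.11 (-0.10 to 0.32), with overlap, and was 0.03 without wild type mouse 2.

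Srsf5 had the smallest p of the family. It was at 309, 238 and 234 CPM in wild type and 248, 214 and 215 CPM in Lair1-/- mice, with a log2 fold change of -0.20 (-0.44 to 0.03) and an unadjusted p of 0.0864 in edgeR. The mouse 1 library was the highest in each genotype, and Lair1-/- mouse 1 lay above wild type mice 2 and 3. Without wild type mouse 1 the log2 fold change of Srsf5 was -0.06.

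Srsf1, the founding member of the family and a regulator of both constitutive and alternative splicing, was at 104, 101 and 105 CPM in wild type. It was at 67.3, 93.4 and 106 CPM in Lair1-/- mice, and mouse 1 was the lowest library there. The log2 fold change was -0.22 (-0.50 to 0.06), and it was -0.06 without Lair1-/- mouse 1 and -0.37 without Lair1-/- mouse 3. Srsf10, which in its dephosphorylated form represses splicing, was at 41.9, 49.0 and 54.6 CPM in wild type and 53.2, 60.8 and 52.2 CPM in Lair1-/- mice, with a log2 fold change of 0.19 (-0.08 to 0.46). The groups of Srsf10 overlapped through wild type mouse 3, and its log2 fold change was 0.09 without wild type mouse 1.

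Among the remaining Srsf genes the log2 fold changes were 0.05 for Srsf3, a small family member that also promotes export of mRNA, 0.01 for Srsf6, -0.003 for Srsf7 and 0.03 for Srsf9. Srsf12 was at 1.51, 1.86 and 2.13 CPM in wild type and 1.30, 2.31 and 2.73 CPM in Lair1-/- mice, with a log2 fold change of 0.20 whose interval, -0.74 to 1.13, spans more than 2-fold upwards. Over the 10 tested Srsf genes, the median log2 fold change was 0.03, with 7 above and 3 below 0.

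The hnRNP genes had mostly negative but small fold changes. Of 18 tested, 14 were below and 4 above 0, the median being -0.07, where 4763 of all 9565 tested genes were negative. Their sum was 3385 ± 16.2 CPM for wild type against 3278 ± 89.1 CPM for Lair1-/- cells (SD, n = 3 each). By library the sum was 3367, 3398 and 3391 CPM in wild type mice 1 to 3, against 3245, 3209 and 3378 CPM in Lair1-/- mice 1 to 3, and Lair1-/- mouse 3 lay within the wild type range. The median stayed between -0.09 and -0.05 when any 1 library was left out, and was -0.05 without mouse 1 of both genotypes.

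Hnrnpc, which binds runs of uridine and guards against inclusion of intronic elements, was the highest in CPM, at 545, 606 and 566 CPM in wild type and 589, 521 and 588 CPM in Lair1-/- mice. Hnrnpab followed at 382, 395 and 395 CPM in wild type and 407, 385 and 406 CPM in Lair1-/- mice. Their folds were 0.99 (0.87 to 1.13) and 1.02 (0.90 to 1.16), and their groups overlapped. The smallest p belonged to Hnrnpd, also known as AUF1, which binds AU-rich elements of unstable transcripts. It was at 279, 290 and 302 CPM in wild type and 276, 265 and 253 CPM in Lair1-/- mice. All 3 Lair1-/- libraries were below all wild type libraries, by a narrow margin, and the log2 fold change was -0.13 (-0.32 to 0.05).

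Hnrnpk, a poly(C)-binding protein, was at 119, 117 and 107 CPM in wild type and 101, 98.5 and 113 CPM in Lair1-/- mice. Hnrnph2, a binder of G-runs encoded on chromosome X, was at 49.9, 41.7 and 37.8 CPM against 36.3, 33.6 and 43.3 CPM. Hnrnpul1 was at 3.53, 4.92 and 6.51 CPM against 3.03, 4.27 and 3.83 CPM. All of these groups overlapped, and the log2 fold changes were -0.13, -0.19 and -0.44, the last with an interval of -1.11 to 0.23. Hnrnpk was at -0.20 without Lair1-/- mouse 3, Hnrnph2 at -0.07 without wild type mouse 1 and -0.30 without Lair1-/- mouse 3, and Hnrnpul1 at -0.20 without wild type mouse 3.

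The regulators of Ptprc splicing did not pass either. Hnrnpl was at 211, 197 and 173 CPM in wild type and 206, 177 and 182 CPM in Lair1-/- mice, a fold of 0.97 (0.84 to 1.13). Hnrpll, the older symbol of the gene for hnRNP LL, falls outside the symbol rule and was at 29.0 ± 5.44 and 28.3 ± 3.70 CPM. Hnrnpul2 was at 46.2, 48.3 and 46.3 CPM in wild type and 48.3, 52.5 and 48.3 CPM in Lair1-/- mice, with wild type mouse 2 and Lair1-/- mouse 3 almost level. Its log2 fold change was 0.08. The hnRNP genes not given by library had log2 fold changes from -0.12 (Hnrnpr) to 0.0006 (Hnrnpf).

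Among the snRNP proteins, the Sm ring was led by Snrpg. Levels of different genes were set side by side per kilobase of annotated exons, since a longer transcript gives more fragments. Whether these libraries cover whole transcripts or only their ends was not given in the sources used here, and for counts of ends the division would favour short genes. On that scale the wild type means were 373 ± 20.0 CPM per kb for Snrpg, 180 ± 22.7 for Snrpb, 180 ± 17.5 for Snrpf and 135 ± 4.48 for Snrpe. They were 62.3 ± 4.56 for Snrpd2, 41.9 ± 0.961 for Snrpd1 and 24.3 ± 2.83 for Snrpd3 (SD, n = 3 each). Snrpb and Snrpf did not differ beyond their spread, and the other neighbours in this order lay further apart than their SDs. The same order held in Lair1-/- cells except that Snrpf (177 ± 17.3) and Snrpb (175 ± 7.33) changed places within their spread. The proteins stand in equal number in the ring, while the wild type levels of their genes ran from 24.3 to 373 CPM per kb. Without division by length they ran from 58.4 CPM (Snrpd1) to 393 CPM (Snrpg). The order then differed, with Snrpe (185 CPM) above Snrpf (155 CPM) and Snrpd3 (73.9 CPM) above Snrpd1. Snrpf also shares 89.5% of its 50-base words with other genes, and the part of this in its level was not tested.

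Between genotypes, Snrpg was at 403, 408 and 369 CPM in wild type and 427, 431 and 399 CPM in Lair1-/- mice, with a log2 fold change of 0.09 (-0.09 to 0.28). Snrpb was at 236, 208 and 184 CPM against 212, 198 and 198 CPM. Snrpd3 was at 67.2, 70.8 and 83.6 CPM against 69.0, 68.1 and 62.2 CPM, for which the log2 fold change was -0.15 (-0.39 to 0.09). These groups overlapped. Without wild type mouse 3 the log2 fold change was -0.06 for Snrpd3 and 0.05 for Snrpg.

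Snrpc had the smallest p of the Snrp genes. It encodes U1-C, which stabilises pairing of the U1 snRNP with the splice donor site, and was at 101, 94.4 and 100 CPM in wild type and 87.2, 87.7 and 87.8 CPM in Lair1-/- mice. All Lair1-/- libraries lay below all wild type libraries. Its log2 fold change was -0.17 (-0.37 to 0.04) and lay between -0.20 and -0.15 when any 1 library was left out. Snrpa, which encodes the U1-A protein of the same particle, was at 51.0, 41.5 and 48.4 CPM in wild type and 56.1, 49.4 and 53.7 CPM in Lair1-/- mice, with a log2 fold change of 0.18 (-0.08 to 0.44), with overlap, and 0.10 without wild type mouse 2. Snrnp70, the third protein specific to U1 and outside the symbol rule, was at 136 ± 10.1 and 136 ± 2.93 CPM. The U2 proteins Snrpa1 and Snrpb2 had log2 fold changes of 0.001 and -0.10. Over the 11 Snrp genes the median was -0.02, with 5 above and 6 below 0.

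The SF3b genes included the only member with an unadjusted p under 0.05. Sf3b4, on the plus strand of chromosome 3 from 96172332 to 96177564, encodes SF3b49, which contacts RNA next to the branch site. It was at 422, 372 and 363 CPM in wild type and 475, 470 and 396 CPM in Lair1-/- mice. Lair1-/- mouse 3 lay below wild type mouse 1, so the groups overlapped. The fold was 1.16 with an unadjusted p of 0.0436 and an adjusted p of 0.9999 in edgeR. Of its 50-base words, 51.2% also occur in transcripts of other genes, nearly all in the processed pseudogene Gm7935 (49.3%), which was not analysed here, and the part of this sharing in the value was not tested. Across the 6 fits that left out 1 library, its log2 fold change ran from 0.16 to 0.29. In 4 of these (without wild type mouse 2 or 3, or Lair1-/- mouse 1 or 2) its unadjusted p in edgeR was above 0.05, as it was with upper quartile factors, and the largest p over all fits was 0.146.

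Sf3b1, the large scaffold that cradles the branch site adenosine, was at 495, 457 and 526 CPM in wild type and 508, 518 and 455 CPM in Lair1-/- mice. Its fold was 1.00 (0.88 to 1.15). Sf3b3 was at 160, 173 and 146 CPM against 147, 195 and 165 CPM, Sf3b2 at 112, 96.7 and 92.7 CPM against 111, 111 and 89.1 CPM, and Sf3b5 at 60.9, 60.6 and 56.5 CPM against 57.4, 46.8 and 55.9 CPM. All overlapped, with log2 fold changes of 0.08, 0.05 and -0.15, the last being -0.07 without Lair1-/- mouse 2. The SF3a genes, which join SF3b to the U2 snRNP, had log2 fold changes of 0.04 for Sf3a1, 0.02 for Sf3a2 and -0.03 for Sf3a3. Per kilobase, the wild type level was 47.4 ± 10.9 CPM for Sf3a2, 19.0 ± 2.37 for Sf3a3 and 6.81 ± 0.605 for Sf3a1. Without division by length it was 106 ± 24.4, 34.5 ± 4.31 and 33.5 ± 2.98 CPM. The gap between Sf3a3 and Sf3a1 thus came from their exon lengths (1820 and 4920 bases), with the same limit on coverage as for the Sm genes.

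The family medians all lay close to 0, and differences between families were not tested. The median log2 fold change was 0.03 for Srsf, -0.07 for Hnrnp, -0.02 for Snrp, 0.02 for Sf3a and 0.05 for Sf3b genes. When 1 library was left out, the median of every family but Hnrnp took both signs: -0.0017 to 0.07 for Srsf, -0.07 to 0.04 for Snrp, -0.03 to 0.11 for Sf3a and -0.03 to 0.10 for Sf3b. Taken by library, as the family's median of log2 CPM centred on the gene's own mean, wild type mice 1 to 3 were at -0.004, -0.06 and 0.08 for Srsf and Lair1-/- mice 1 to 3 at 0.04, -0.009 and 0.04. For Hnrnp these were 0.0004, 0.05 and 0.02 against -0.10, -0.03 and 0.04. The ranges of the genotypes overlapped in each of the 5 families. For Sf3b the values were 0.03, -0.07 and -0.13 against 0.05, 0.13 and -0.07. Groups did not overlap for 3 of the 47 genes (6.38%), Hnrnpd and Snrpc downwards and Hnrnpul2 upwards, where 8.38% of all tested genes did not overlap, 4.09% downwards and 4.3% upwards.

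**Figure D3:**
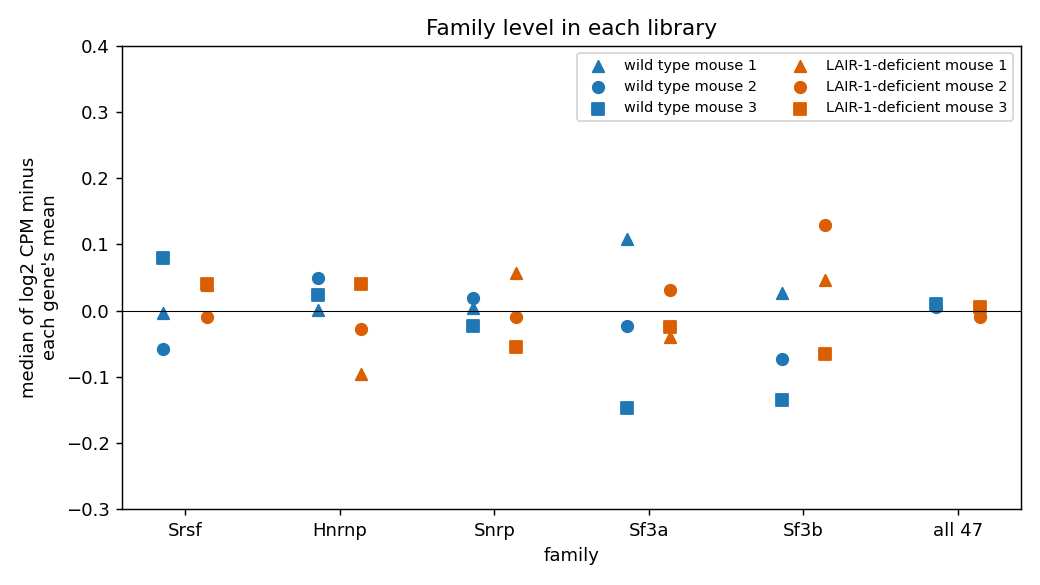
Median over each family of log2 CPM minus the gene's own mean, 1 point per library. The last column is the median over all 47 genes. Colours give the genotype and shapes the mouse number. All points lie between -0.15 and 0.13, and the genotypes overlap in every family.

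The libraries labelled mouse 1, which had the high immediate early genes, stood apart for a few splicing factors, at a share near that of all genes. Both mouse 1 libraries lay above the 4 others for 6 of the 47 genes, where 11.9% of all tested genes did so, and below them for 6, where 12.1% did. Those above were Srsf5, Hnrnpa0, Hnrnpl, Snrpb, Sf3a2 and Sf3b2, and those below Srsf12, Hnrnpa2b1, Hnrnpa3, Hnrnpr, Hnrnpul1 and Sf3a3. The largest gap among those above was that of Sf3a2, at 132 and 117 CPM in mouse 1 of wild type and Lair1-/- cells and 103, 83.1, 104 and 99.8 CPM in the others, a log2 gap of 0.35. Srsf5 followed with 0.31. In the 7 lists of other splicing genes described below, 25 of 143 tested genes lay below in both mouse 1 libraries and 12 above. The list with the most below, named after the values were seen, was that of hnRNP-like regulators, with 12 of 36 below and 3 above. The PRP19 complex and catalytic helicases had 6 of 28 below and 3 above, and the other snRNP proteins 1 of 24 below and 1 above. This is a description, and the part of the immediate early state in it was not tested.

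Several members had close copies elsewhere in the transcriptome, and their levels need that context. For each gene, all words of 50 bases in its protein-coding transcripts were looked up in all other GENCODE vM21 transcripts on either strand. The share found elsewhere was above 25% for 10 of the 48 genes and 0 for 7. It was 89.5% for Snrpf, mainly through the overlapping gene Ccdc38 (58.5%), 65.4% for Srsf4, through the overlapping gene Gm12992, and 61.9% for Hnrnpf. Hnrnpa1 shared 46.7% of its words with 20 other genes, 19 of them pseudogenes, such as Gm10052 (46.5%), which has no row in the count table. Of the 20, 2 have a row of their own, Gm5643 (27.6%) and Hnrnpa1l2-ps2 (14.9%), and their counts are not given here.

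Hnrnpa1 encodes a core hnRNP protein that represses exons and is known as abundant in most nuclei, yet it was at 1.26, 1.20 and 2.02 CPM in wild type and 0.865, 2.31 and 2.05 CPM in Lair1-/- mice. That was 6 to 18 counts per library. How reads with several matches were handled was not given in the sources used here, and the part of the copies in this level was not tested. Other members were low with little sharing: Hnrnph3 (2.69% shared) was at 3.03, 0.985 and 1.68 CPM in wild type and 1.30, 1.78 and 1.64 CPM in Lair1-/- mice, and Hnrnpul1 (0.253%) and Srsf12 (0%) were under 10 CPM too. Others were high with much sharing, such as Hnrnpf at 334 ± 7.69 and 334 ± 17.4 CPM.

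**Figure D4:**
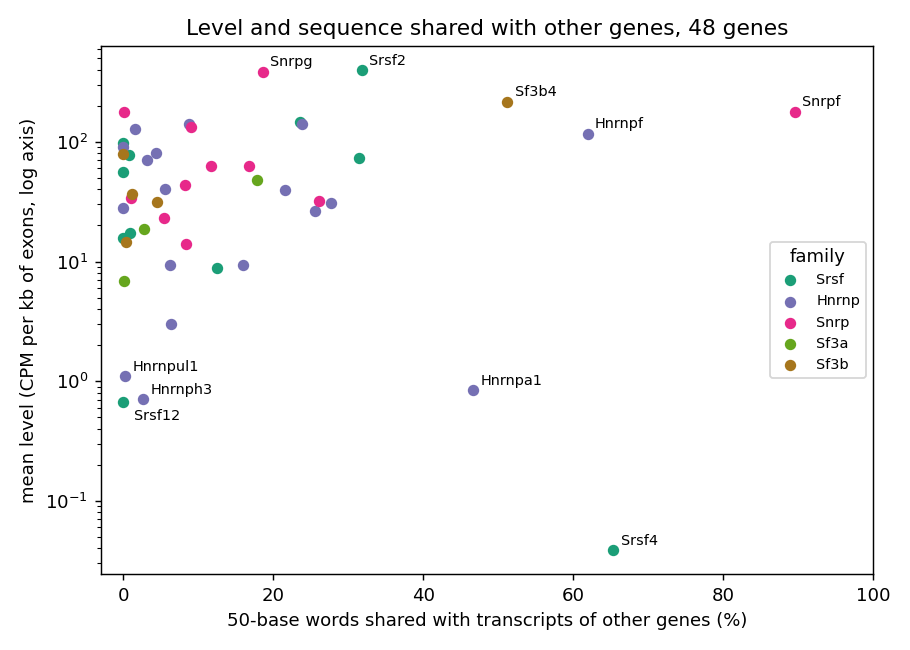
Share of a gene's 50-base words found in transcripts of other genes (percent) against its mean level over 6 libraries (CPM per kb of exons, log axis), 1 point per gene for 48 genes, coloured by family. Srsf4 and Hnrnpa1 combine a high share with a low level, while Snrpf, Hnrnpf and Sf3b4 have a high share and a high level.

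Other genes of the splicing machinery did not pass the test either. In 7 lists with 143 tested genes, 0 passed edgeR's test, the median log2 fold change was -0.002, and 70 were above and 73 below 0. Upwards, 2 of them had an unadjusted p under 0.05, as did 1.81% of all tested genes, and downwards 0, against 1.44%. Both are hnRNP-like regulators. Rbm5, which promotes exon skipping in death receptor transcripts, was at 71.3, 69.7 and 65.7 CPM in wild type and 79.0, 88.4 and 81.3 CPM in Lair1-/- mice. Fubp1 was at 78.7, 93.5 and 97.4 CPM in wild type and 112, 97.8 and 119 CPM in Lair1-/- mice. Neither group pair overlapped, for Fubp1 by a narrow margin (97.4 against 97.8 CPM). Groups did not overlap for 8.38% of all tested genes, 4.3% upwards. The other genes of these lists without overlap were Pcbp1, Khsrp, Gemin2, Gemin6, Gemin8 and Cwc22 upwards, and Matr3, Mbnl3 and Snrnp35 downwards. Of these, Gemin2, Gemin6, Gemin8 and Snrnp35 lay under 10 CPM in every library. The log2 fold changes of Rbm5 and Fubp1 were 0.27 (0.05 to 0.49) and 0.29 (0.05 to 0.52).

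By list, 0 of 24 tested other snRNP proteins passed (11 positive, 13 negative), with Snrnp40 at -0.22 and Snrnp35 at -0.61 on the log2 scale. Of 11 genes of U2AF and the branch site, Sf1, the branch site binding protein that precedes SF3b1, was at 769 ± 45.7 and 847 ± 51.6 CPM, and U2af1 had a log2 fold change of -0.16. Of 19 genes of the LSm ring and the SMN complex, which loads Sm rings onto small nuclear RNA, 11 were positive and 8 negative, with Gemin7 at -0.25 and Gemin8 at 0.52. Of 28 genes of the PRP19 complex and catalytic helicases, 11 were positive and 17 negative, with Prpf40b at -0.48 and Cwc22 at 0.25. The 10 tested genes on the list of kinases and importins were 8 positive and 2 negative, with the kinase Clk4 at 0.16 and the importin Tnpo3 at 0.15. The 15 SR-like and exon junction genes were 7 positive and 8 negative, with Pnn at -0.18 and Sap18 at 0.14. None of these passed the test. Snrnp35, Gemin8 and Prpf40b, with large values here, lay under 10 CPM in every library. Their 95% intervals were wide and included 0, at -1.56 to 0.35, -0.16 to 1.19 and -1.09 to 0.13.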

How the data were processed

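Per the labels' protocols, total RNA of 100000 sorted cells per mouse was extracted with TRIzol, and libraries were made with Illumina TruSeq small RNA primers. The deposited table holds raw read counts, per the file headers, with 1 row per gene and 1 column per library. The submitters' processing notes name BWA and mm10; annotation, counting tool, strand setting, molecular identifiers and handling of reads with several matches were not given in the sources used here. Reads of overlapping, antisense or near-identical genes could therefore be mixed.

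Columns were matched to mice by the sample descriptions. All 48 members matched 1 gene of GENCODE vM21 by symbol and chromosome. The 4 spike-in rows (0 to 4 counts per library) were left out. The test was that of edgeR 4.0.16 under R 4.3.3 (filterByExpr at a smallest count of 10, TMM, robust quasi-likelihood F test, two-sided, no covariate), with Benjamini-Hochberg adjustment over 9565 genes at 0.05. An SE is the fold change (log2) over the root of F. Mouse numbers were not taken as pairs. Exon lengths are the union of exons in the basic annotation, which is long for Hnrnpr (21483 bases). Only the main edgeR fit was run on simulated data, drawn with its own estimates of variation. The other fits, and changes as small as those of the members, were not simulated.

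Per-library values are given, by a rule, for the 4 members per family with the smallest p and the 2 most abundant, with Sf3a and Sf3b pooled. The rule also took the 3 members per direction with the largest mouse 1 gap. Per other list the 2 genes with the smallest p are named. Genes named beyond the rule were chosen after values were seen. They are Hnrnpl, Hnrpll, Snrnp70, Hnrnpf, Hnrnpul2, genes of the other lists named for lack of overlap, and the remaining members by fold change. The members and lists were chosen with earlier results of these data known. DESeq2 1.42.0, limma 3.58.1 (voom), other scalings, filters, a replicate block and fits without single libraries were run as alternatives. The search for shared words, and medians without members above 25% sharing, were added after the table was seen.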

Additional observations from a re-analysis of the deposited data

How the results depend on the processing

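No member and none of the other splicing genes was called in any of the 16 fits. The count of all genes called was 1 as reported, 3 without a filter, 0 with a smallest count of 30, 0 to 2 without 1 library and 0 without mouse 1 of both groups. Members at an unadjusted p under 0.05 numbered 1, against 2 without a filter, 0 with upper quartile factors and 0 to 2 without 1 library; without Lair1-/- mouse 1 or wild type mouse 3 Srsf5 was among them and Sf3b4 was not. Members without overlap numbered 3, against 2 with library totals, upper quartile factors, no filter or a smallest count of 30, 4 to 13 without 1 library and 15 without mouse 1 of both groups, where fewer libraries make separation more common (15.1% to 20.7% and 32.8% of all tested genes). With mouse number as a replicate block, 3 members (Sf3b4, Srsf5, Srsf1) had an unadjusted p under 0.05 and 0 were called; same-numbered libraries correlated at 0.29, 0.01 and 0.07 in their deviations from the group means, and wild type mouse 2 correlated best with Lair1-/- mouse 3 (0.09), so the numbers were not taken as pairs.

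The median log2 fold change over all members moved by more than its SD between libraries (0.0059) from -0.016 to -0.0077 with library totals, -0.023 without a filter, -0.0065 without mouse 1 of both groups, -0.037 without members that share over 25% of their words, and between -0.033 and 0.0062 without 1 library. Without 1 library the Snrp median ran from -0.069 to 0.035. The Sf3a median was 0.13 without mouse 1 of both groups. Signs changed for single genes, including Hnrnph3, Hnrnpa1 and Srsf12, whose reported values (-0.26, 0.20 and 0.20) are among the larger ones. Without 1 library the ranges were -0.049 to 0.058 for Sf3b1, -0.0091 to 0.15 for Sf3b2, -0.030 to 0.17 for Sf3b3, -0.13 to 0.20 for Sf3a2, -0.051 to 0.039 for Hnrnpc, -0.135 to 0.048 for Snrpb, -0.58 to 0.23 for Hnrnph3, -0.031 to 0.53 for Hnrnpa1 and -0.052 to 0.45 for Srsf12. Without mouse 1 of both groups, Srsf2 was at -0.0084, Hnrnpab at -0.0015, Snrpb at 0.0085, Sf3b1 at -0.020 and Hnrnph3 at 0.35, and without a filter Sf3b1 was at -0.0012. The cause was not tested. Low counts limit Srsf12, Hnrnpul1, Hnrnph3, Hnrnpa1 and Srsf4, and among the other splicing genes Snrnp35, Gemin8 and Prpf40b.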
